A study of Mus musculus with 5 samples.

Results

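The loci of 6 transcription factors of mesenchymal cells, Twist1, Twist2, Snai1, Snai2, Prrx1 and Runx1, were described by their DNase I hypersensitive sites in mouse 3T9 fibroblasts. Members were the called sites that overlapped 1 of 6 fixed windows on the mm9 build, chr12:34590000-34700000 for Twist1, chr1:93650000-93800000 for Twist2, chr2:167310000-167420000 for Snai1, chr16:14655000-14760000 for Snai2, chr1:165120000-165300000 for Prrx1 and chr16:92550000-92880000 for Runx1. They numbered 56 of the 52181 sites in all. DNase-seq sequences the short fragments that DNase I releases from chromatin not protected by nucleosomes, and a peak is an interval in which a caller found more of them than background.

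All libraries came from E13.5 embryonic fibroblasts of mixed strain, with floxed c-myc alleles on both chromosomes and infected in culture with MycER. MycER is Myc fused to the hormone-binding part of the estrogen receptor, and 4-hydroxytamoxifen (4-OHT) activates it. 3T9 cells are fibroblasts immortalised by serial passage, so the data describe a cultured line and not tissue. The vehicle group was given ethanol (0 h, 2 libraries) and the treated group 400 nM 4-OHT (4 h, 2 libraries), and 1 input of sonicated genomic DNA completed the 5 samples. For 4-OHT replicate 2 the time is given by the title only.

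The lists deposited for 4-OHT replicate 1 and ethanol replicate 2 held the same 44956 intervals and scores, so 3 distinct lists were used. They are called the ethanol list (ethanol replicate 1, 35149 peaks), the 4-OHT list (4-OHT replicate 2, 47621 peaks) and the double-labelled list, which carries both labels. Each treatment thus had 1 list of undisputed label, no difference between lists has a replicate check, and no test or p-value is given. Replicate letter and treatment cannot be told apart where the ethanol and 4-OHT lists are compared. Nothing in the labels says whether libraries came from separate cultures. Read depth is unknown, and a longer list holds more weak peaks. A site missing from a list was therefore not detected there, which does not show that it was closed.

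Twist1 and Twist2 are basic helix-loop-helix factors that bind E-boxes, short motifs of the form CANNTG, as dimers with E proteins, and they act in mesoderm, limb and craniofacial mesenchyme. Snai1 (Snail) and Snai2 (Slug) are zinc-finger repressors that also bind E-boxes and silence epithelial genes such as Cdh1, the gene of E-cadherin, in the transition from epithelium to mesenchyme. Prrx1 is a paired-related homeodomain factor of limb bud and fibroblast lineages. Runx1 is a runt-domain factor that binds DNA with its partner Cbfb. It is best known from blood formation and is also expressed in mesenchymal cells. Runx1 is transcribed from a distal and a proximal promoter.

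Myc with its partner Max also binds E-boxes, preferably CACGTG, so the sequence before the starts of these genes is shown with its E-boxes. RefSeq promoters on GRCm38.p6 matched 5 of the 6 genes by symbol, with 6 start sites, and none matched Snai2. Sequences are the 250 bases before the start, 5′ to 3′ on the gene's strand, and capitals mark every CANNTG. They are from another build than the peaks and were not placed on mm9, so no peak was assigned to them. The gene with the most E-boxes, one with a single E-box and 2 sequences without any are printed.
Runx1, upstream start (minus strand): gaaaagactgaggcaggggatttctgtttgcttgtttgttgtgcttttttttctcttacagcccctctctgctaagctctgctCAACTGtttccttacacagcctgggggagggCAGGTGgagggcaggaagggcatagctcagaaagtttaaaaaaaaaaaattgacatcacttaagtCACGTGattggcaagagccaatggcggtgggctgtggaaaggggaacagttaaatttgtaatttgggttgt
Snai1 (plus strand): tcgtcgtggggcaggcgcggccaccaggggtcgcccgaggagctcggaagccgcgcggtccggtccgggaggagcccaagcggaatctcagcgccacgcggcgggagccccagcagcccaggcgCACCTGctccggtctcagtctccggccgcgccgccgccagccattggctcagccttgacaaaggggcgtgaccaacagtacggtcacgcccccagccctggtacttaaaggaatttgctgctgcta
Runx1, downstream start (minus strand): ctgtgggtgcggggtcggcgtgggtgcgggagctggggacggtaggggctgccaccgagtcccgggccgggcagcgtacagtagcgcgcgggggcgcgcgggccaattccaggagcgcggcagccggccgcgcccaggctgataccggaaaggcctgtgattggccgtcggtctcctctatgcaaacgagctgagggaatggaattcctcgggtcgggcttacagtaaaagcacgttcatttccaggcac
Twist1 (plus strand): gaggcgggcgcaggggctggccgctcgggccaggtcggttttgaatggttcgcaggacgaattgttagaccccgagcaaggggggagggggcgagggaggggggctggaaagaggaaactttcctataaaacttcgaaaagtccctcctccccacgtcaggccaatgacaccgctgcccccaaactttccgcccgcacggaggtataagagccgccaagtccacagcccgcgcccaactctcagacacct

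The upstream Runx1 sequence held 3 E-boxes, CAACTG at 167, CAGGTG at 136 and CACGTG at 71 bases before the start (counted to the first base of the motif). Snai1 held 1, CACCTG at 126 bases before the start, the form preferred by Snail factors. The Runx1 CAGGTG is the same form read on the other strand. The downstream Runx1 start, Twist1, Twist2 and Prrx1 had 0 matches in this stretch. Among the 32851 RefSeq promoter sequences of the same length, 66.2% held CANNTG on either strand, 17.2% held CACCTG or its reverse complement CAGGTG, and 6.02% held CACGTG. These last motifs are also counted within CANNTG. A match describes letters and not binding, and an absence says only that the letters are not in this window. Bases G and C made up 45.6% of the upstream Runx1 sequence, 47.6% of that of Prrx1 and 62.4% to 70% of the others.

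All 6 windows had at least 1 site with a peak in every distinct list. In all, 36 of the 56 sites (64.3%) were held by the 3 lists, where the share over all sites was 61.1%. The Snai1 window held 21 sites and the Runx1 window 20, the Twist2 window 9, the Prrx1 window 4, and the Twist1 and Snai2 windows 1 each. This is 19.1 sites per 100 kb at Snai1, 6.06 at Runx1, 6 at Twist2, 2.22 at Prrx1, 0.952 at Snai2 and 0.909 at Twist1. Over all chromosomes, between the first and the last site of each, there were 2.03 sites per 100 kb. The windows lie around chosen genes, so these densities are a description only. The score of a peak is the peak caller's own value, deposited by the authors. On the scale of MACS it is minus 10 times the log10 of a p-value, a meaning taken from the caller's name, as no header states it. The lowest score was 80 after rounding in every list, and scores piled up at 3100. Values of 3100 and above were therefore treated as tied when scores were compared between lists or ranked. Which site covers a gene's start was not determined, because the annotation used here was not on mm9. Promoter and distal sites are therefore not separated, and sites are numbered from left to right within each window. For the same reason neither marker genes of fibroblasts and other cell types nor related factors such as Zeb1 and Zeb2 were read.

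**Figure D1:**
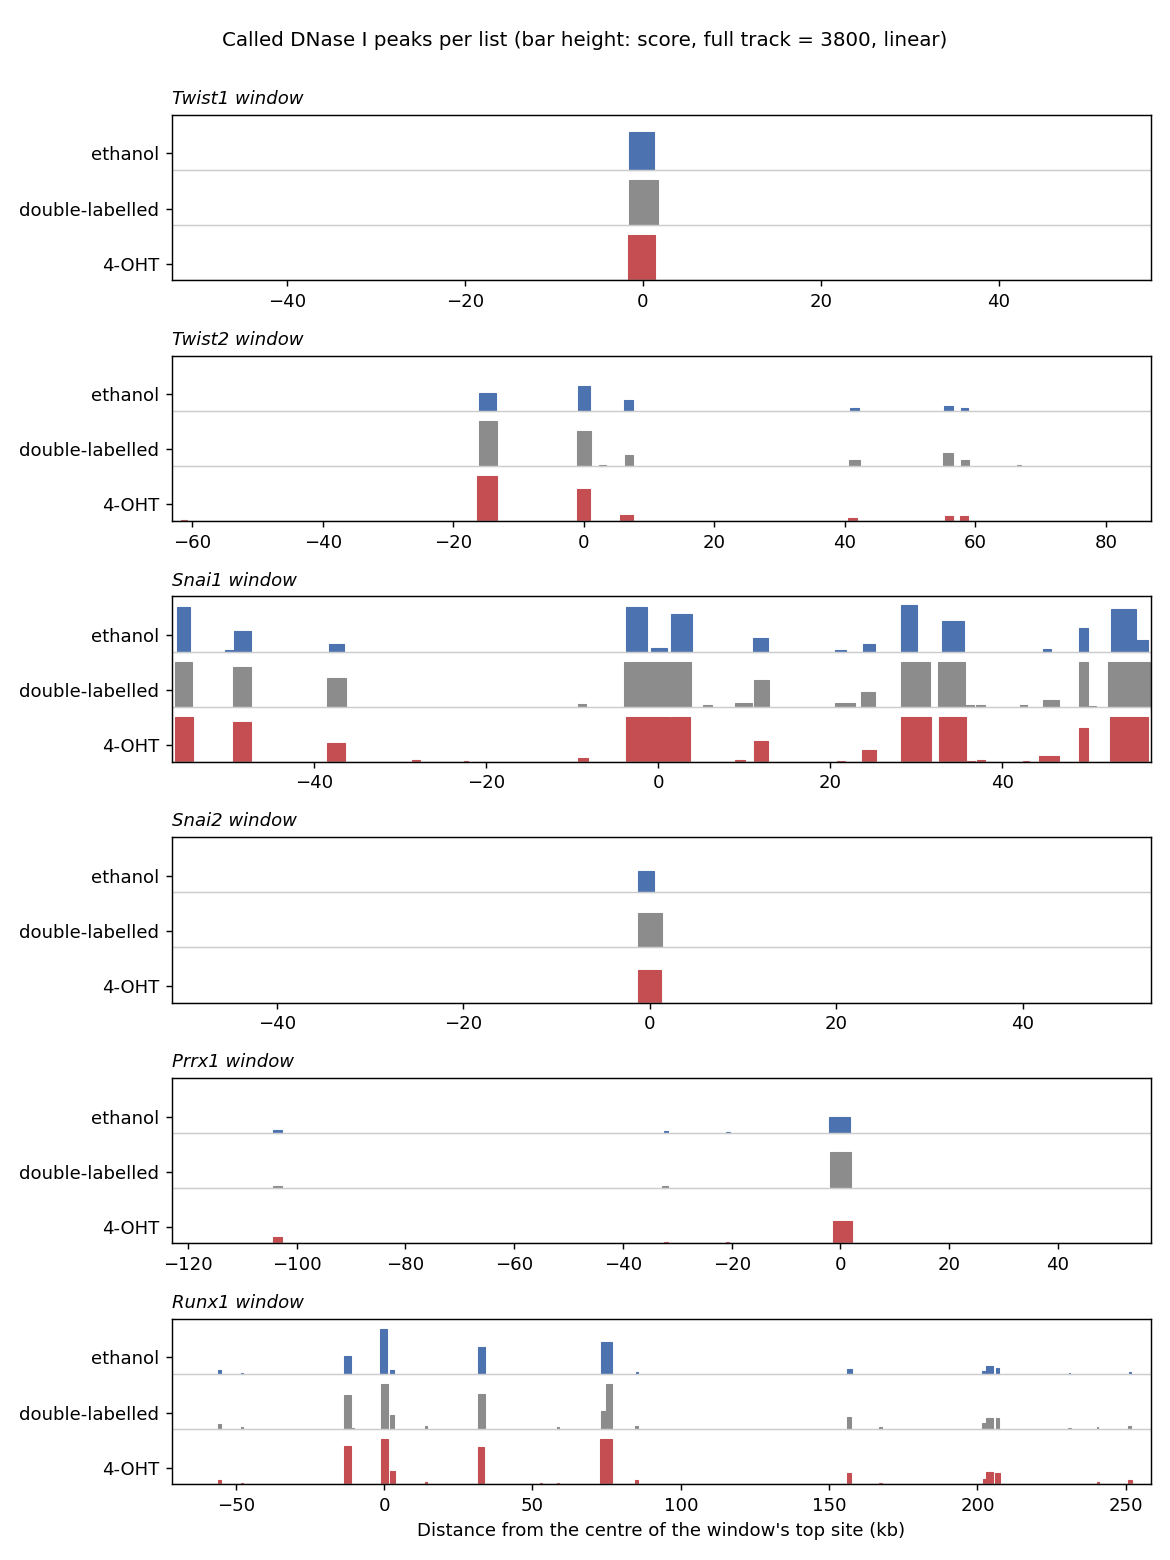
Called peaks in the 6 windows in the ethanol, double-labelled and 4-OHT lists, against the distance in kb from the centre of the site with the highest lowest score in that window (ties by width). Bars span each peak and their height is the score on a linear scale, with a full track standing for a score of 3800. Twist1 and Snai2 show 1 peak per list, whereas the Snai1 window holds 21 sites.

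**Figure D2:**
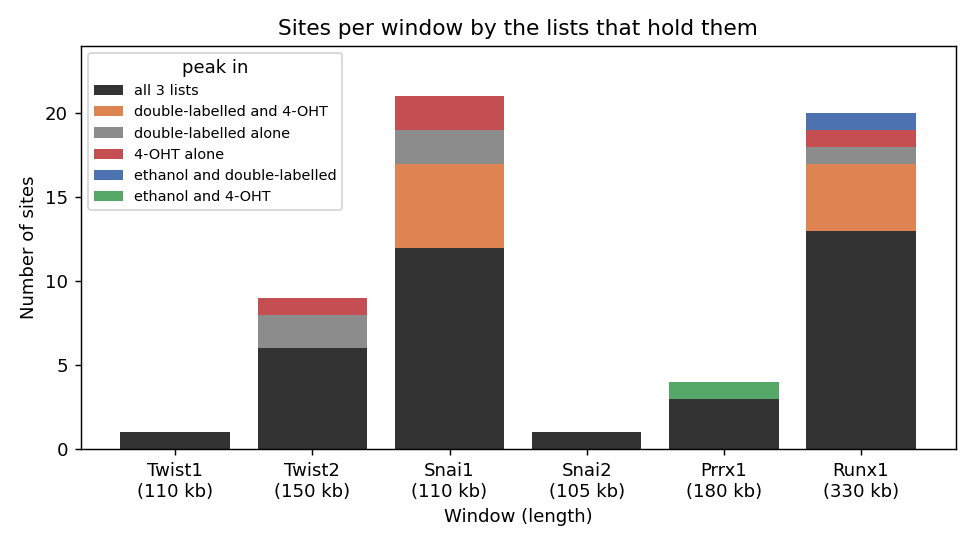
Number of sites in each window, stacked by the lists that hold a peak there, with the window length in kb under each name. Sites of all 3 lists are the largest class in every window, and no window has a site of the ethanol list alone.

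The Twist1 window held 1 strong, isolated site. It lay at chr12:34641335-34644609 and scored 2588 in the ethanol list, 3100 in the double-labelled list and 3100 in the 4-OHT list. The peak was 2794, 3173 and 2965 bp wide in the same order. All 3 lists placed it among their higher scores, at the 89.5th percentile or above of its own list in each. The next site lay 62.0 kb to the left and 80.2 kb to the right, so the distance to the nearest site was 62.0 kb. Over all sites the median of this distance was 5.46 kb, and 4.37% of sites were farther from their nearest neighbour. On GRCm38.p6 the protein-coding genes next to Twist1 are Ferd3l, a basic helix-loop-helix gene, and Hdac9, a histone deacetylase gene.

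Twist2 had several sites in place of one, and their order by score differed between lists. Its 9 sites included 6 of all 3 lists. Site 2 at chr1:93696824-93699870 scored 1238 in the ethanol list, 3100 in the double-labelled list and 3100 in the 4-OHT list. It was lowest in the ethanol list, where it ranked at the 74.6th percentile of shared sites, against the 92.3rd in the 4-OHT list. Site 3 at chr1:93712095-93714212 scored 1677, 2417 and 2226 in the same order of lists. In the ethanol list site 3 thus scored above site 2, and in the other lists below it. Site 5 at chr1:93718774-93720751 scored 723.5 in the ethanol list, 768.8 in the double-labelled list and 443 in the 4-OHT list. It was 1 of 3 shared sites in the 6 windows that scored lower in the 4-OHT list than in the ethanol list, although its peak there was the widest, at 1978 bp against 1380 bp in the ethanol list. Its percentile among shared sites went from 63.5 in the ethanol list to 50.1 in the double-labelled and 37.9 in the 4-OHT list.

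Sites 6, 7 and 8 of Twist2 lay to the right, after a stretch of 32967 bp without a peak. Site 6 scored 163.1 in the ethanol list, 428.3 in the double-labelled list and 174.4 in the 4-OHT list. Site 7 scored 303.6, 860.5 and 360.8, and site 8 scored 160.5, 404.5 and 315.3, in the same order. At all 3 the double-labelled list was highest. The longest stretch without a peak in this window, 44.4 kb, lay to the left of site 2. The other 3 sites were weak and each was in 1 list, site 1 in the 4-OHT list with a score of 85.1, and sites 4 and 9 in the double-labelled list with 83.1 and 81.4. On GRCm38.p6 Twist2 lies between Asb1 and Hdac4, another histone deacetylase gene.

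The Snai1 window was the densest, and 3 of its 12 shared sites reached the score ceiling in every list. Site 7 at chr2:167362670-167370529 was the widest site of the 6 windows, with 7860 bp. It was 1 peak of 7793 bp in the double-labelled list, 2 peaks of 5081 and 2194 bp in the 4-OHT list, and 3 peaks of 2403, 1779 and 2447 bp in the ethanol list. The 3 ethanol peaks scored 3100, 230.2 and 2584 from left to right, and both 4-OHT peaks scored 3100. The middle peak was thus the weak part of the site in the ethanol list, and in the other lists it was joined to a peak at the ceiling. Site 1 at chr2:167310359-167312517 scored 3100 in all 3 lists. Site 13 at chr2:167394785-167398330 scored 3211 in the ethanol list and 3100 in the double-labelled and 4-OHT lists, which counts as tied. Its peak was 1900 bp wide in the ethanol list, 3367 bp in the double-labelled list and 3546 bp in the 4-OHT list. Site 21 at chr2:167418903-167423857 crosses the right end of the window. It scored 2906 in the ethanol list, with 2 peaks, and 3100 in each of the others, with 1 peak.

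The other 8 shared sites of the Snai1 window covered a wide range of scores. Site 14 scored 2103 in the ethanol list, 3100 in the double-labelled list and 3057 in the 4-OHT list. Site 19 scored 1658, 3051 and 2298, and site 2 scored 1397, 2715 and 2775, in the same order. Site 10 scored 947.6, 1863 and 1461, and site 3 scored 549.6, 1961 and 1274. Site 12 scored 512, 1008 and 819.8, and site 18 scored 166.1, 467.9 and 411.7. At these 7 sites the ethanol list was lowest. Site 11 at chr2:167387179-167389446 went the other way, with 124.4 in the ethanol list, 286.3 in the double-labelled list and 85.1 in the 4-OHT list. In the 4-OHT list site 11 stood near the bottom of all shared sites, at the 0.333rd percentile.

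The 9 remaining Snai1 sites were absent from the ethanol list. Site 6 at chr2:167357291-167358381, 4288 bp to the left of the wide site 7, scored 173.4 in the double-labelled list and 270.1 in the 4-OHT list. Site 9 at chr2:167375493-167377511 scored 237.8 in the double-labelled list and 109.3 in the 4-OHT list. Its right end lay 150 bp from site 10, which all lists held. Sites 15, 16 and 17 were also in both of these lists, with scores of 81.3 to 112.7. Sites 4 and 5 were in the 4-OHT list alone (100.8 and 88.8), and sites 8 and 20 in the double-labelled list alone (99.7 and 81.7). Snai1 lies among closely spaced genes. On GRCm38.p6 its next protein-coding neighbours are Spata2 and Rnf114 on one side and Ube2v1 and Tmem189 on the other. Sites of this window may therefore belong to other genes, and which gene each belongs to was not tested.

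Snai2 had 1 site, as Twist1 did, and it was the more isolated of them. It lay at chr16:14704994-14707621 and scored 1468 in the ethanol list, 2386 in the double-labelled list and 2264 in the 4-OHT list. The peak was 1740 bp wide in the ethanol list, 2628 bp in the double-labelled list and 2486 bp in the 4-OHT list. Among shared sites it ranked at the 78th, 73.6th and 77.5th percentile in the same order, so that its higher scores in the other lists came with almost the same rank. The next site was 222 kb to the left and 177 kb to the right. Only 0.920% of all sites were farther from their nearest neighbour.

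Prrx1 had 1 site above 1000 in every list and 3 sites with scores under 500. Site 4 at chr1:165240964-165245036 scored 1137 in the ethanol list, 2529 in the double-labelled list and 1528 in the 4-OHT list. It was a single peak in each list, 3726, 3992 and 3439 bp wide, and with 4073 bp it was 1 of the 4 sites of at least 4000 bp. Site 1 at chr1:165138592-165140384 scored 217.1 in the ethanol list, 163.1 in the double-labelled list and 468 in the 4-OHT list. This is the only shared site of the Prrx1 window at which the 4-OHT list was highest. Site 2 at chr1:165210150-165211333 scored 137.8, 143.9 and 116.4, a lower value in the 4-OHT than in the ethanol list. Between sites 1 and 2 lay 69.8 kb without a peak. Site 3 was held by the ethanol list (87.6) and the 4-OHT list (81.9) and not by the double-labelled list, the only site of the 6 windows with this pattern. On GRCm38.p6 Prrx1 lies between Mroh9 and Gorab.

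Runx1 had a long series of sites in the widest window, 330 kb, of which 13 of 20 were in all lists. Site 5 at chr16:92620382-92622932 was at the ceiling of 3100 in every list. Site 11 at chr16:92694557-92698619 scored 2231 in the ethanol list and 3100 in the 4-OHT list, each time as a single peak (3639 and 3965 bp). In the double-labelled list it was 2 peaks, of 1807 bp with a score of 1232 and of 2019 bp with a score of 3100. This is the only site of the 6 windows that the double-labelled list split. Site 8 at chr16:92653303-92655544 scored 1883 in the ethanol list, 2415 in the double-labelled list and 2539 in the 4-OHT list. Site 3 scored 1250, 2382 and 2603 in the same order. Sites 3, 5, 8 and 11 were the 4 Runx1 sites that scored at least 1000 in every list.

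To the right of site 12 there was no peak for 70.4 kb. Beyond it lay site 13, which scored 354.9 in the ethanol list, 828.5 in the double-labelled list and 781 in the 4-OHT list. Sites 15, 16 and 17 followed as a group between chr16:92823336 and 92829223, only 120 and 856 bp apart. Site 15 scored 201.2, 388.2 and 372.6 in the order ethanol, double-labelled and 4-OHT. Site 16 scored 561.9, 742.5 and 819.1, and site 17 scored 423.8, 782.7 and 802.1. The ethanol list was lowest at all 3. Site 6, next to the site at the ceiling, scored 288.1 in the ethanol list, 990 in the double-labelled list and 882.2 in the 4-OHT list. Its log2 ratio of scores between the 4-OHT and ethanol lists, 1.61, was the highest of the shared sites in the 6 windows. The other shared Runx1 sites were 1, 2, 12 and 20, with ethanol scores of 86.8 to 260.5 and 4-OHT scores of 99.9 to 301.6. On GRCm38.p6 the next protein-coding genes are Clic6 and Setd4.

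The 7 Runx1 sites not held by all lists (35% of 20) were weak. Over all sites, 61.1% had a peak in all 3 lists. Sites 7, 10, 14 and 19 were in the double-labelled and 4-OHT lists, the highest scores being those of site 7 (184.6 and 164.1) and site 19 (176.8 and 168.4). Site 4 was in the double-labelled list alone (85.0) and site 9 in the 4-OHT list alone (83.4). Site 18 was in the ethanol list (80.04) and the double-labelled list (96.3) and not in the 4-OHT list. It was the only site of the ethanol list in the 6 windows that the 4-OHT list lacked. A weak ethanol peak of 969 bp, merged into Snai1 site 2, also overlapped no 4-OHT peak.

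**Figure D3:**
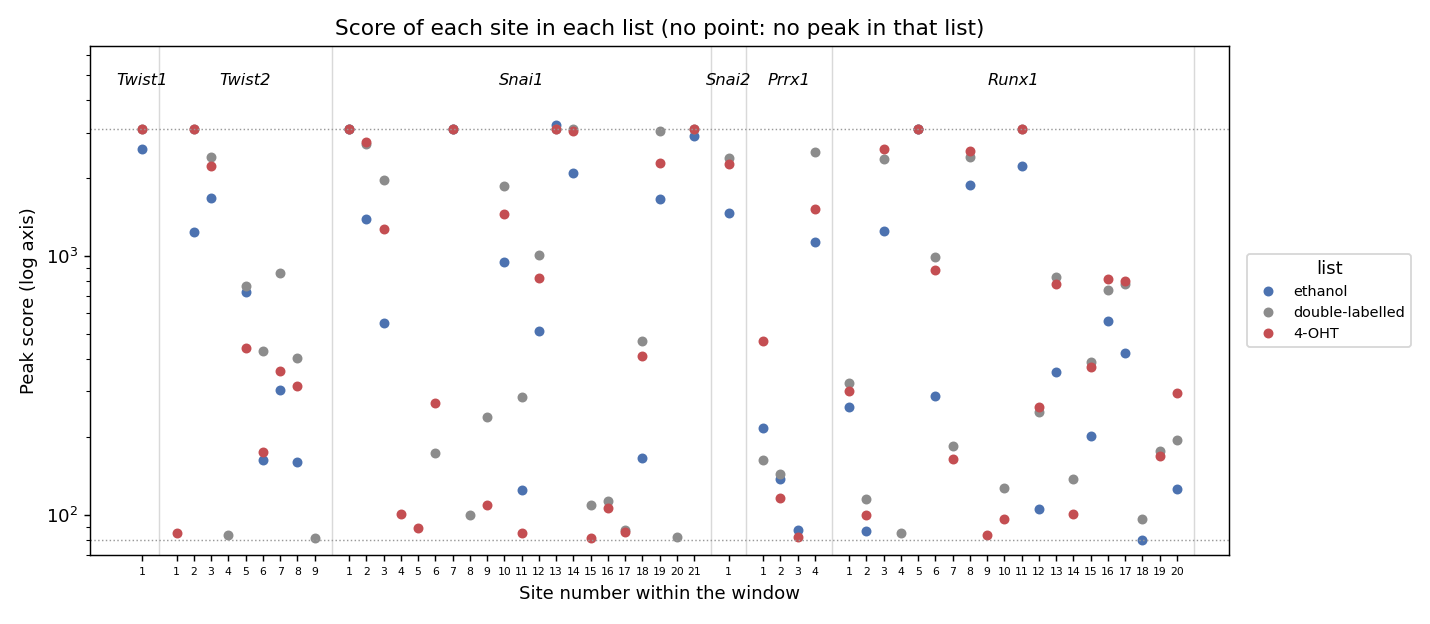
Score of every site in the ethanol, double-labelled and 4-OHT lists, on a log axis, by window and site number. Dotted lines mark scores of 80 and 3100. Equal scores are drawn over each other, with the 4-OHT point on top. A missing point means no peak, and the sites that a list lacked lie at scores of 80.04 to 270.1 in the lists that held them.

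Absence from a list went with low scores in the lists that held the site. The 4-OHT list held 50 sites, 13 of them without a peak in the ethanol list, or 26% (Wilson 95% interval 15.9% to 39.6%), and the share over all sites was 29.6%. The reverse held for 1 of the 38 sites of the ethanol list, or 2.63% (0.466% to 13.49%), against 3.87% over all sites. The double-labelled list had 14 of 51 sites without a peak in the ethanol list (27.5%, interval 17.1% to 40.95%), and the share over all sites was 26.6%. In each case the members' share was near that of the whole genome. These intervals hold counting error alone, and sites close to each other are not independent. The 13 sites had 4-OHT scores from 81.3 to 270.1, with a median of 100.4, and over all sites of this kind the median was 118.9. They lay at Snai1 (7 of 19, 36.8%), Runx1 (5 of 18, 27.8%) and Twist2 (1 of 7, 14.3%). Of the 23 sites of the 4-OHT list with a score of at least 500, 0 were absent from the ethanol list, so a share of up to 13% is allowed. Over all sites this was 45 of 18682, or 0.241%. With each list held to its 35149 highest-scoring peaks the 13 sites became 3, and the 1 ethanol site became 5. The 6 windows then held 42 sites. The share over all sites is not given for this check or the next, so these counts are not set against the background. In a further check the double-labelled list was counted under both labels and 1 library was left out. The 13 became 18 without ethanol replicate 2, 5 without ethanol replicate 1 and 4 without 4-OHT replicate 1. Without 4-OHT replicate 2 the count was 0, which was fixed in advance. The double-labelled list was then the whole 4-OHT side and also part of the ethanol side. The 1 ethanol site became 6 without 4-OHT replicate 1 and 0 without ethanol replicate 2. Without ethanol replicate 1 the count was also 0, and this too was fixed in advance. The double-labelled list was then the whole ethanol side and also part of the 4-OHT side.

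Scores at shared sites were mostly higher in the 4-OHT list, as they were over the genome. Of the 36 shared sites, 29 scored higher in the 4-OHT than in the ethanol list (80.6%), 3 scored lower and 4 were tied at the ceiling. Over all shared sites 83.5% were higher. The median log2 ratio of scores was 0.51 in the windows and 0.61 over all shared sites. The double-labelled list, which may be either treatment, also scored above the ethanol list at 31 of the 36 (86.1%), where 84.8% of all shared sites did. As its label is disputed and depth is unknown, no effect of 4-OHT can be read from these scores. The 3 shared sites lower in the 4-OHT list were Twist2 site 5, Snai1 site 11 and Prrx1 site 2, described above. By percentile within its own list, the count higher in the 4-OHT list was 29 of 36. This percentile depends on list length, and the 4-OHT list had 47621 peaks against 35149 in the ethanol list. By rank among shared sites the count was 16 of 36, with 20 lower, and over all shared sites 47.8% ranked higher. The 20 include the 4 sites tied at the ceiling. These went from the 95.7th to the 92.3rd percentile because more scores are tied at the ceiling in the 4-OHT list. Over all shared sites, 2731 were at the ceiling in all 3 lists and were counted as lower in the same way. The median shift was -0.8 percentile points in the windows and -0.5 over all shared sites, so the members' ranks were near the background.

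Ranks moved by at least 10 percentile points at 11 of the 36 shared sites. Higher in the 4-OHT than in the ethanol list were 5, where 13.7% of all shared sites were called this way, and lower were 6, where 12.9% were. The 5 were Twist2 site 2, Snai1 site 18 and Runx1 sites 6, 12 and 20. The percentile of Runx1 site 6 was 42.1 in the ethanol list, 55.6 in the double-labelled list and 56.5 in the 4-OHT list. Runx1 site 12 was at 8.84, 19.3 and 20.9, and Snai1 site 18 at 24.7, 37.8 and 35.6, in the same order. At these and at Twist2 site 2 the double-labelled list stood with the 4-OHT list. Runx1 site 20 was at 14.8, 12.7 and 24.8, so there the double-labelled list stood with the ethanol list. The 6 lower sites were Twist2 sites 5, 6 and 7, Snai1 site 11, Prrx1 site 2 and Runx1 site 1. Runx1 site 1 was at 39.3 in the ethanol list, 27.2 in the double-labelled list and 25.4 in the 4-OHT list. Prrx1 site 2 was at 18.2, 6.34 and 2.90. Snai1 site 11 was at 14.5, 23.3 and 0.333, and Twist2 site 6 at 24.2, 35.3 and 9.88. At both of these, and at Twist2 site 7 (43.6, 52.7 and 31.4), the double-labelled list ranked above the ethanol list and the 4-OHT list below it. None of these shifts can be told apart from differences between single libraries.

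**Figure D4:**
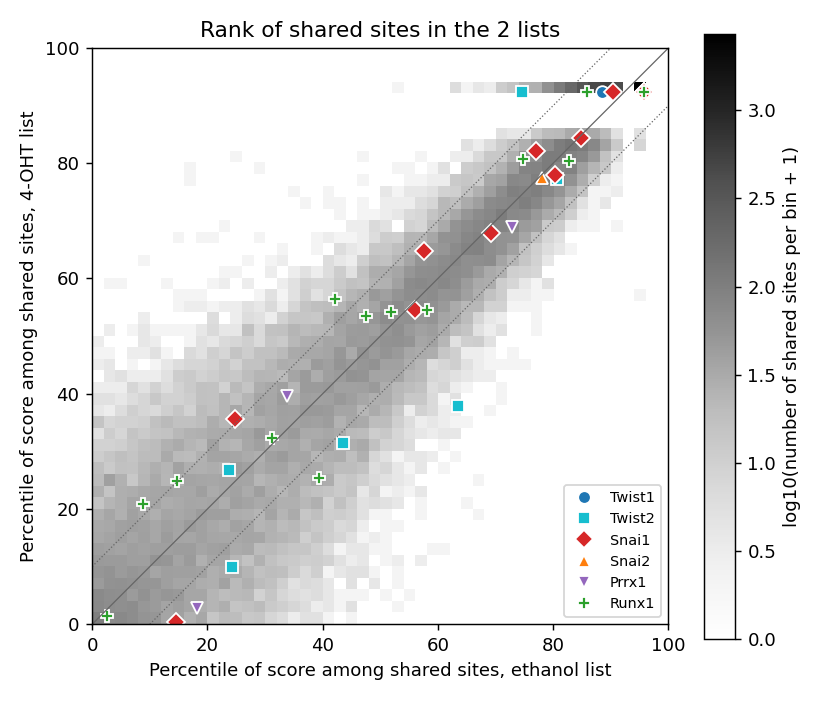
Percentile of the score among the 31871 shared sites in the ethanol list (x axis) and in the 4-OHT list (y axis), for the 36 shared sites of the 6 windows (coloured symbols) over all shared sites (grey, log10 of the number per bin plus 1). The solid line marks equal rank and dotted lines a shift of 10 percentile points. The 5 sites at or above the upper dotted line and 6 at or below the lower one are those named in the text, and sites at the ceiling share 1 rank per list.

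A few sites were wide or held more than 1 peak in a list. Of the 56 sites, 4 were at least 4000 bp wide (7.14%), where 1.7% of all sites were. They were Snai1 sites 7 and 21, Prrx1 site 4 and Runx1 site 11. Width here is that of the merged site, in the windows and over all sites. Neither Prrx1 site 4 nor Runx1 site 11 had a peak of 4000 bp in any list. Of the 36 shared sites, 4 held more than 1 peak in some list (11.1%), and over all shared sites 5.94% did. These were Snai1 sites 2, 7 and 21, with more than 1 peak in the ethanol list, and Runx1 site 11, which the double-labelled list split. At Snai1 site 2 the ethanol list had a further peak of 969 bp with a score of 89.4 beside its main peak of 1922 bp. That further peak ended at 167317143. The double-labelled peak began at 167317119 and the 4-OHT peak at 167317165, so only the double-labelled peak overlapped it. No list had 1 peak spanning both ethanol peaks, so this site was not split. The median summed peak width at shared sites of the windows was 1692 bp in the ethanol list, 1937 bp in the double-labelled list and 2002 bp in the 4-OHT list. Over all shared sites it was 1279, 1450 and 1389 bp in the same order. At the ceiling in all 3 lists were 4 of the 36 shared sites (11.1%), with 8.57% over all shared sites. They were Snai1 sites 1, 7 and 13 and Runx1 site 5.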

How the data were processed

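The authors deposited 4 peak lists with an interval and a score for each peak, and the deposited score is the peak caller's own value. The submitters' processing notes name the build mm9 and the tools MACS 1.4.1, BWA 0.6.2 and SAMtools. Their settings, the use of the input and any scaling to equal depth are not given in the sources used here. DNase I was used on nuclei at 200 to 300 U/ml for the digests that were sequenced, per the labels' protocols, and small fragments were taken from a gel.

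Peaks of the 3 distinct lists that overlapped by at least 1 bp were merged into sites, and a site's score in a list was its highest peak score there. Scores of at least 3100 were tied for ranks and ratios, a step chosen after the data had been seen, as was the rank among sites of all 3 lists. Percentiles are mid-ranks. Starts are counted from 1. Members, windows and lists were chosen with earlier results of these data known. Sites named with all values were the 3 of each window with the highest lowest score, those lacking in the ethanol or 4-OHT list with a score of at least 200, and those of at least 4000 bp. Further sites were given so that every member is accounted for, and were chosen after their values were seen. Merging was tested on simulated lists with known answers. Wilson 95% intervals are given for shares of sites that another list lacked. Alternatives were equal list length, a score of at least 100, other overlap rules, windows changed by 20 kb and leaving out each library. Python 3.11.15, numpy 2.4.6, scipy 1.17.1 and matplotlib 3.10.9 were used.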

Additional observations from a re-analysis of the deposited data

How the results depend on the processing

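The 56 sites of the 6 windows and the 36 held by all lists stayed within 1.5 times these counts under every alternative run, as did the median scores and widths of shared sites under both other overlap rules. The 13 sites of the 4-OHT list without a peak in the ethanol list became 3 at equal list length, 7 with a score of at least 100 and 8 with windows narrowed by 20 kb. The windows then held 42, 45 and 43 sites in all, against 56, so there were fewer members to count. The share over all sites is not given for any alternative. Leaving out 1 library gave 18 such sites without ethanol replicate 2, 5 without ethanol replicate 1 and 4 without 4-OHT replicate 1. The 0 without 4-OHT replicate 2 was fixed in advance, as the double-labelled list then stood on both sides. The 1 ethanol site without a peak in the 4-OHT list became 5 at equal list length and 2 with an overlap of 50% of the shorter peak. Leaving out 1 library gave 6 without 4-OHT replicate 1 and 0 without ethanol replicate 2. The 0 without ethanol replicate 1 was fixed in advance in the same way. Equal length leaves out the weakest peaks of the longer lists. By score, 29 of the 36 shared sites were higher in the 4-OHT list. The count was also 29 by percentile within each list, a measure that depends on list length. It became 16 of 36 by rank among shared sites, a measure that leaves out a rise common to all sites of a list. Over all shared sites 47.8% ranked higher. What raised the scores was not tested. No paired analysis was possible because the repeated list sits under both replicate numbers and no test was run, so the replicate block was not run, nor were other promoter distances. Depth is unknown and limits every absence. For single windows, widening by 20 kb gave 2 sites at Twist1, and narrowing gave 12 at Snai1.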
